A study of Mus musculus with 5 samples.

Results

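The transcripts described here encode postsynaptic proteins, and several of them are known to be carried into dendrites: Camk2a, Camk2n1, Arc, Dlg4, Shank1, Shank3, Homer1 and Ddn. They were found on the array by gene symbol in its probe annotation, with no use of measured values, which gave 21 probe sets of 45101. They are 8 of the 18193 genes that the annotation names on the array. Camk2a and Homer1 had 6 probe sets each, Dlg4 had 3, Camk2n1 had 2, and Arc, Shank1, Shank3 and Ddn had 1 each.

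The postsynaptic density is a protein meshwork under the membrane of excitatory synapses. Its scaffold proteins tie glutamate receptors to kinases and to the actin cytoskeleton. Some of its mRNAs are packed into granules, moved along dendrites and translated close to the synapse, and Camk2a and Arc are the classical examples in the forebrain. Such mRNAs leave the nucleus bound to export adaptors, and the REF proteins are a family of these.

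RNA from mouse brain was incubated in vitro with the protein MA-Brent-1, and the RNA that bound was measured on Affymetrix mouse expression arrays after biotin labelling. 2 arrays held RNA eluted from deiminated MA-Brent-1 and 2 held RNA eluted from the non-deiminated protein, while 1 array held the starting RNA with no binding step, called input here. Deimination converts arginine residues of a protein to citrulline. The titles of 1 deiminated and 1 non-deiminated sample call the protein REFP2 instead, 1 title speaks of a biological repeat, and strain, age and the origin of the remaining samples are not stated in the labels. The p-values therefore cover no more than the spread among these samples, part or all of which may be technical. With no bait-free elution among the 5 arrays, RNA retained by the protein and RNA carried over in the procedure cannot be told apart.

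The arrays differed in ways that bear on every comparison with input. The median signal over all probe sets ran from 29.8 to 41.4 on the bound arrays and was 102 on the input array. The hybridisation controls, foreign transcripts added in fixed amounts, averaged 10.6 and 12.6 log2 on deiminated replicates 1 and 2, 10.1 and 13.0 on non-deiminated replicates 1 and 2, and 17.04 on the input. The ratio of 3' to 5' control signal was 29.8 to 55.6 for beta-actin on the bound arrays against 234 on the input, and 17.4 to 31.9 for Gapdh against 2.71. The part of these differences in the results below was not tested. All 10 neuronal marker genes of the list used lay above the array median on all 4 bound arrays, and 8 did on the input, with a summed signal of 18916 to 20619 on the bound arrays and 5339 on the input. None of the 8 liver and muscle genes lay above the median on all bound arrays, but 4 did on the input. Their summed signal was 132 to 185 on the bound arrays and 1135 on the input.

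**Figure D1:**
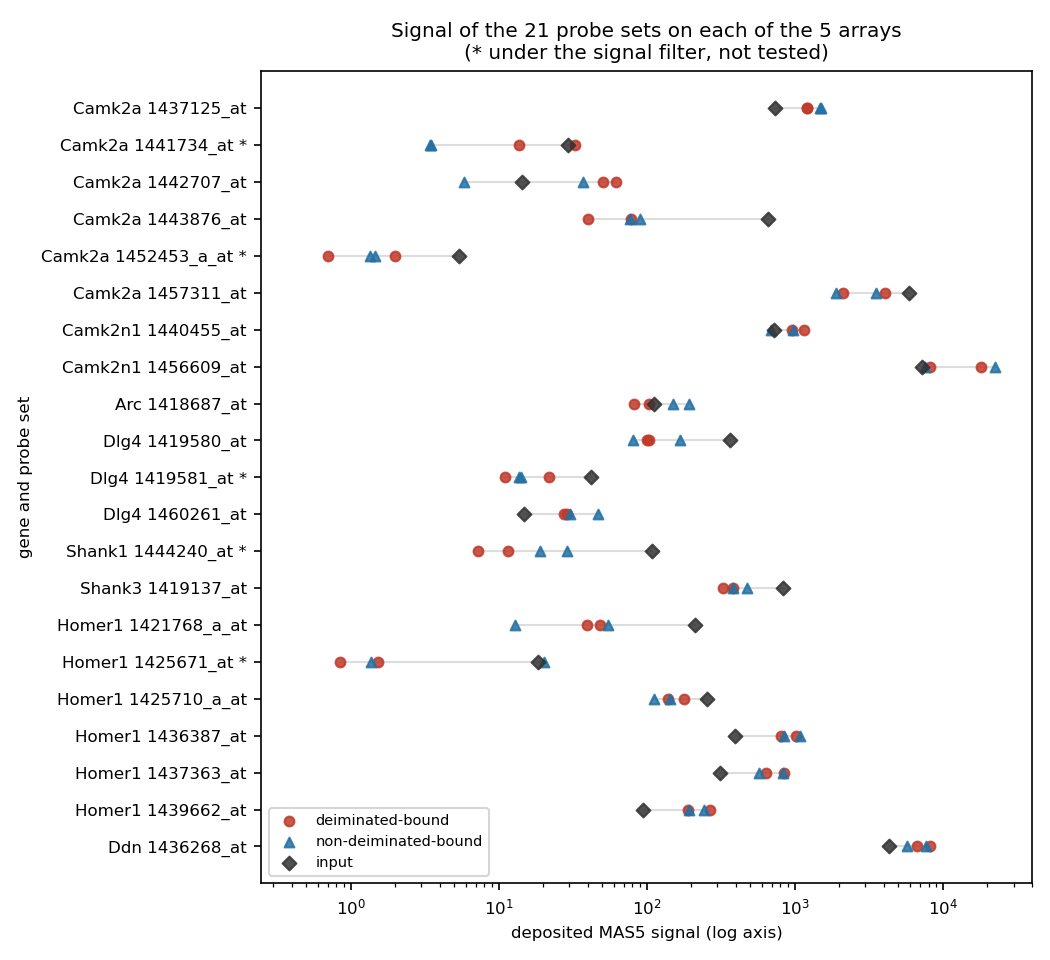
Deposited MAS5 signal (log axis) of each of the 21 probe sets on the deiminated-bound arrays (circles), the non-deiminated-bound arrays (triangles) and the input array (diamonds); an asterisk marks the 5 probe sets under the signal filter. The input lies below all 4 bound arrays for 7 probe sets, above all 4 for 9 and between them for 5.

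Of the 21 probe sets, 16 passed the filter on mean signal and were tested, and they cover 7 of the 8 genes, with Shank1 left untested. Of these 16, the signal was higher on all 4 bound arrays than on the input for 7 and lower on all 4 for 6, where 39.1% and 45.6% of all probe sets kept were. The filter uses the mean over all 5 arrays, so a dim probe set could pass through 1 group alone. Log2 differences were taken after adding a pseudocount of 4.18, which understates the change of dim probe sets. A probe set is called when its Benjamini-Hochberg adjusted p from limma, over all 27022 probe sets kept, is under 0.05. Errors after ± are standard errors from that model, and n gives the arrays on each side.

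In deiminated-bound RNA against input, 7 of the 16 probe sets were called, 3 higher and 4 lower. Of all probe sets kept, 51.5% were called, 24.9% higher and 26.6% lower, so the share among the postsynaptic transcripts lay near that background. The 3 higher probe sets all belong to Homer1, and the lower ones belong to Camk2a, Dlg4, Shank3 and Homer1. The median log2 difference of the 16 was 0.63 against -0.21 for all probe sets, an order that turned after quantile normalisation, to -0.013 against 0.51. In non-deiminated-bound RNA against input, 7 of 16 were called, 4 higher and 3 lower, where 50.5% of all probe sets were called, 24.7% higher and 25.7% lower. There the median was 0.39 against -0.19, and 0.011 against 0.48 after quantile normalisation. Both comparisons use the same input array, so their likeness is no separate support, and the model assumed that this lone array varies as much as bound ones do. The first count fell when either deiminated array was left out, which leaves 1 array on that side. With no trend in the variance model the counts were 2 and 2. They were Camk2a 1443876_at with Dlg4 1419580_at in the deiminated comparison and with Homer1 1421768_a_at in the non-deiminated one. The share of all probe sets called under these alternatives is not given here, so the drops are not read as particular to the postsynaptic transcripts.

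**Figure D2:**
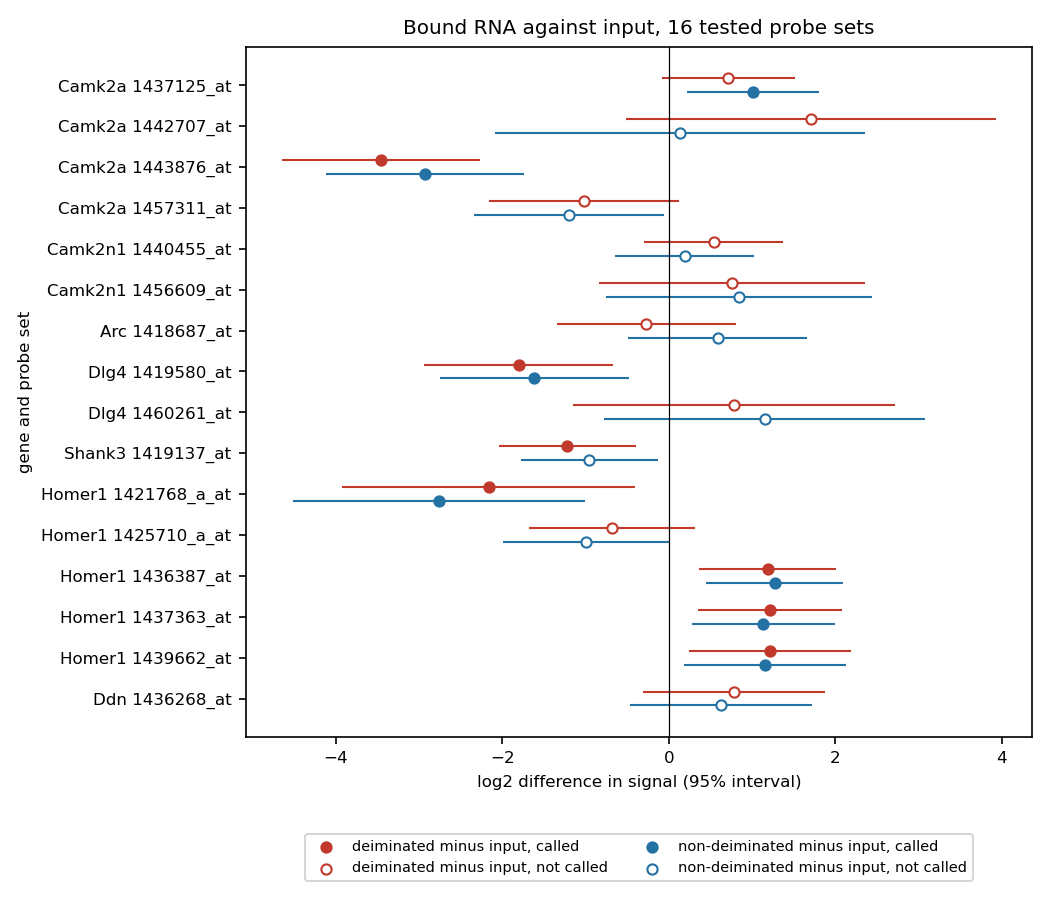
Log2 difference of the 16 tested probe sets, bound minus input, with 95% intervals for the deiminated (red) and non-deiminated (blue) protein; filled points are called and open points are not. The Homer1 probe sets 1436387_at, 1437363_at and 1439662_at lie to the right of 0 in both comparisons and 1421768_a_at to the left, while the lowest point in both is Camk2a 1443876_at.

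Camk2a encodes the alpha subunit of calcium/calmodulin-dependent protein kinase II, the most abundant kinase of the postsynaptic density. Its probe sets did not move together. Probe set 1443876_at had signals of 40.2 and 78.6 with the deiminated protein, 77.1 and 89.8 with the non-deiminated protein and 664 on the input. All 4 bound arrays were far under the input, and the bound groups overlapped. It fell by 3.46 ± 0.55 on the log2 scale in the deiminated comparison (n = 2 and 1; adjusted p = 0.000368) and by 2.93 ± 0.55 in the non-deiminated one (adjusted p = 0.00124), a direction that turned to 1.75 and 2.35 when arrays were scaled to their hybridisation controls. Under that scaling the median of all probe sets was 4.32 and 4.38, so this probe set still lay under it.

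The probe set of Camk2a with the highest mean signal, 1457311_at, read 2112 and 4094 with the deiminated protein, 1894 and 3537 with the non-deiminated protein and 5949 on the input. All 4 bound signals were under the input, and the array with more hybridisation control signal was the higher of each group. Its log2 differences were -1.02 ± 0.53 (adjusted p = 0.121) and -1.20 ± 0.53 (adjusted p = 0.0732), and neither was called. It was called without non-deiminated replicate 2, at -1.65 in the non-deiminated comparison (adjusted p = 0.00463) and at -1.02 in the deiminated one (adjusted p = 0.0320), and in the latter also without non-deiminated replicate 1 (adjusted p = 0.0392).

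Probe set 1437125_at of Camk2a went the other way, with 1211 and 1209 with the deiminated protein, 1504 and 1473 with the non-deiminated protein and 737 on the input. The replicates of each group lay close together, and all 4 bound arrays exceeded the input. The log2 difference was 0.71 ± 0.37 for deiminated RNA (adjusted p = 0.120). It rose by 1.01 ± 0.37 in non-deiminated RNA (adjusted p = 0.0368), a call that was lost without deiminated replicate 1 (adjusted p = 0.0993) or 2 (adjusted p = 0.103), and the signs turned after quantile normalisation, to -0.40 and -0.09. The dim probe set 1442707_at read 62.1 and 51.0 with the deiminated protein, 36.9 and 5.87 with the non-deiminated protein and 14.3 on the input, so its non-deiminated replicates lay on either side of the input. Its mean log2 signal of 4.95 passed the threshold of 4.89 through the deiminated arrays alone, at 5.92, since the non-deiminated mean of 4.35 and the input at 4.21 lay under it. Its log2 differences from input, 1.71 ± 1.03 and 0.13 ± 1.03, are therefore given as a description. The remaining probe sets of Camk2a were under the filter. 1441734_at read 32.7 and 13.6, 3.51 and 3.46, and 29.6 on the deiminated, non-deiminated and input arrays, and 1452453_a_at stayed between 0.701 and 5.41 on all 5 arrays.

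Camk2n1 encodes an endogenous inhibitor of the same kinase. Its brighter probe set, 1456609_at, read 8161 and 18189 with the deiminated protein, 7546 and 22403 with the non-deiminated protein and 7228 on the input. The replicates of a group lay further apart than the lower of them lay from the input. In each group the array with more hybridisation control signal was again the higher, and the part of that difference was not tested. The log2 differences were 0.75 ± 0.74 (adjusted p = 0.403) and 0.85 ± 0.74 (adjusted p = 0.350). Without non-deiminated replicate 1 the second was 1.63 and was called (adjusted p = 0.0390). The other probe set, 1440455_at, read 956 and 1161, 980 and 695, and 724 in the same order of groups, with log2 differences of 0.54 ± 0.39 and 0.19 ± 0.39 that were not called.

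Arc is an immediate early gene whose protein drives the removal of AMPA receptors from the synapse, and its mRNA is sent to active dendrites. Its probe set 1418687_at read 103 and 81.6 with the deiminated protein, 192 and 150 with the non-deiminated protein and 112 on the input. The input lay between the groups, above both deiminated arrays and below both non-deiminated arrays. Neither difference from input was called. It was -0.27 ± 0.50 for deiminated RNA (adjusted p = 0.663) and 0.58 ± 0.50 for non-deiminated RNA (adjusted p = 0.338), and the first turned to 1.12 after quantile normalisation and 1.23 after median centring. After these the second was 1.85 (adjusted p = 0.00592) and 2.002 (adjusted p = 0.0148), and was called. In the order deiminated, input, non-deiminated, neither pair of neighbouring levels passed the test.

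Dlg4 encodes PSD-95, the central scaffold that anchors glutamate receptors. Probe set 1419580_at read 103 and 100.1 with the deiminated protein, 167 and 80.4 with the non-deiminated protein and 366 on the input. All 4 bound arrays lay under the input, and the bound groups overlapped. It fell by 1.81 ± 0.53 in deiminated RNA (adjusted p = 0.0133) and by 1.62 ± 0.53 in non-deiminated RNA (adjusted p = 0.0226), directions that turned to 3.32 and 3.56 with the hybridisation controls as the scale. After median centring the values were -0.31 and -0.20 and not called. The second call was lost without non-deiminated replicate 2 (-1.11, adjusted p = 0.0554). Probe set 1460261_at was dimmer, with 29.1 and 27.8, 30.4 and 47.1, and 14.8 on the input, so all 4 bound arrays lay above it. Its log2 differences were 0.78 ± 0.89 and 1.15 ± 0.89, not called, and the input signal alone was under the filter threshold. After median centring they were 2.28 and 2.57, and after quantile normalisation 2.07 and 2.38. The probe set passed the filter through its bound arrays alone, so its differences from input are given as a description. The probe set under the filter, 1419581_at, read 11.1 and 21.7, 13.8 and 14.2, and 42.2 on the input.

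Shank1 and Shank3 encode the large scaffolds that connect PSD-95 complexes with Homer and actin. Shank3 (1419137_at) read 380 and 329 with the deiminated protein, 382 and 473 with the non-deiminated protein and 829 on the input. Every bound array was under the input, and the groups were just apart, at 380 against 382. Shank3 fell by 1.22 ± 0.38 in deiminated RNA (adjusted p = 0.0180), but the sign turned to 0.27 after median centring and to 4.08 under hybridisation control scaling. That call was lost without deiminated replicate 1 (adjusted p = 0.0575) or 2 (adjusted p = 0.104). In non-deiminated RNA it had -0.96 ± 0.38 and just missed the threshold (adjusted p = 0.0508), and it passed without non-deiminated replicate 2 (-1.11, adjusted p = 0.0200) and after quantile normalisation (-1.95, adjusted p = 0.000869). Shank1 (1444240_at) was under the filter and was not tested. It read 11.5 and 7.23 with the deiminated protein, 19.0 and 28.9 with the non-deiminated protein and 109 on the input, with all bound signals far under the input.

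Homer1 encodes an adaptor that links metabotropic glutamate receptors to Shank proteins, and a short, activity-induced form of it uncouples that link. Its probe sets fell into 2 kinds. Probe set 1436387_at read 1012 and 803 with the deiminated protein, 1077 and 851 with the non-deiminated protein and 394 on the input. The bound arrays all exceeded the input and the bound groups overlapped. It rose by 1.19 ± 0.38 in deiminated RNA (adjusted p = 0.0206) and by 1.27 ± 0.38 in non-deiminated RNA (adjusted p = 0.0156). Probe set 1437363_at read 841 and 637, 839 and 572, and 313 on the input, and rose by 1.22 ± 0.40 (adjusted p = 0.0226) and 1.14 ± 0.40 (adjusted p = 0.0311). Probe set 1439662_at read 269 and 190, 244 and 193, and 94.996 on the input, and rose by 1.21 ± 0.45 (adjusted p = 0.0384) and 1.16 ± 0.45 (adjusted p = 0.0470).

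These 3 Homer1 probe sets kept a positive sign under all 4 scalings and lay above the median of all probe sets under each. Their distance above that median in the deiminated comparison was 0.14 to 2.03, 0.56 to 2.004 and 1.42 to 1.91 in the order given. After quantile normalisation 1436387_at was at 0.65 (adjusted p = 0.105) in the deiminated comparison and 0.75 (adjusted p = 0.0665) in the non-deiminated one, and neither was called. With the robust variance model 1439662_at just missed the threshold in the non-deiminated comparison (adjusted p = 0.0503). The calls in the deiminated comparison were lost without deiminated replicate 1, with adjusted p of 0.151, 0.149 and 0.253. Without deiminated replicate 2 the first and the third were lost (adjusted p = 0.0506 and 0.0600). In the non-deiminated comparison 1437363_at was lost without non-deiminated replicate 1 (adjusted p = 0.0683), and 1439662_at without non-deiminated replicate 1 (adjusted p = 0.0949), deiminated replicate 1 (adjusted p = 0.0890) or deiminated replicate 2 (adjusted p = 0.0785).

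The other kind read higher on the input. Probe set 1421768_a_at of Homer1 had 39.4 and 48.3 with the deiminated protein, 54.9 and 12.8 with the non-deiminated protein and 210 on the input, where no bound array came near. It fell by 2.16 ± 0.81 (adjusted p = 0.0402) in deiminated RNA and fell by 2.76 ± 0.81 in non-deiminated RNA (adjusted p = 0.0147), turning to 2.75 and 2.25 under hybridisation control scaling. The first of these calls was lost without deiminated replicate 1 (adjusted p = 0.112) or 2 (adjusted p = 0.0639), while the second, at -1.86 without non-deiminated replicate 2, was kept when each bound array was left out in turn. After quantile normalisation both were lost, at -1.16 (adjusted p = 0.254) and -1.90 (adjusted p = 0.0745), and after median centring too, at -0.67 (adjusted p = 0.528) and -1.34 (adjusted p = 0.209). The first was also lost when all probe sets were fitted (adjusted p = 0.0569) or the pseudocount was 4 times smaller (adjusted p = 0.0531), so it was called under 4 of 12 alternatives. Probe set 1425710_a_at had 139 and 179, 144 and 112, and 257 on the input, with log2 differences of -0.69 ± 0.46 and -0.99 ± 0.46 that were not called. The last probe set, 1425671_at, was under the filter and read 0.844 and 1.54, 1.37 and 20.2, and 18.5 on the input.

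Ddn encodes dendrin, a proline-rich protein of dendrites and of kidney podocytes. Its probe set 1436268_at read 6690 and 8216 with the deiminated protein, 5766 and 7648 with the non-deiminated protein and 4297 on the input. All 4 bound arrays lay above the input and the bound groups overlapped. The log2 differences were 0.79 ± 0.51 (adjusted p = 0.205) and 0.63 ± 0.51 (adjusted p = 0.311), and neither was called. After median centring they were 2.28 and 2.04 and both were called (adjusted p = 0.000539 and 0.00111).

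Disagreement between probe sets of a gene was common on these arrays. The spread between the highest and the lowest log2 difference of a gene's probe sets does not depend on a factor common to an array, apart from the pseudocount. In deiminated RNA against input it was 5.17 over 4 probe sets of Camk2a, where the median of the 537 genes with that number kept was 4.07. For Homer1 it was 3.38 over 5 probe sets, against a median of 4.50 over 235 genes. Dlg4 had 2.59 and Camk2n1 had 0.21, where 3369 genes with 2 kept probe sets had a median of 1.99. Homer1 had probe sets called in opposite directions in this comparison, as did 19.4% of the 5643 genes with more than 1 kept probe set. In non-deiminated RNA against input both Homer1 and Camk2a did, against 18.6% of those genes. The positions of the probe sets along the transcripts were not used here.

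**Figure D3:**
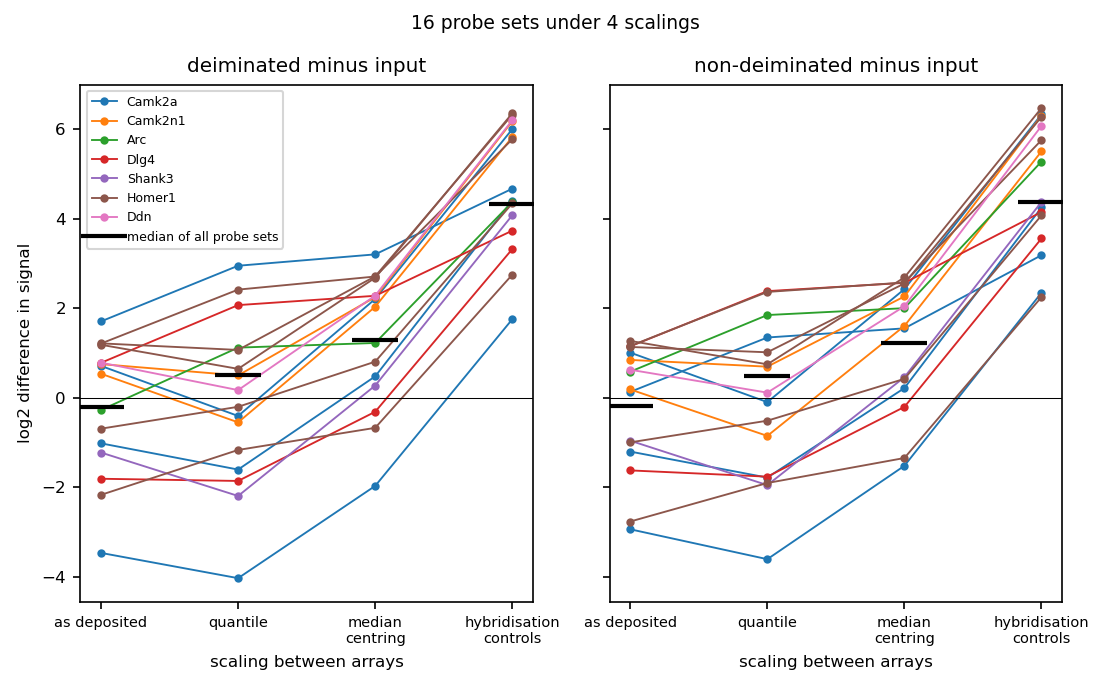
Log2 difference of the 16 tested probe sets, bound minus input, under 4 scalings between arrays; lines join a probe set, colours mark genes and black bars mark the median of all 27022 probe sets. The bar moves from -0.21 to 4.32 in the left panel and from -0.19 to 4.38 in the right, while Camk2a 1443876_at stays the lowest line but for Homer1 1421768_a_at under hybridisation control scaling in the right panel.

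The sign of many differences from input depended on how the arrays were put on a common scale. The median over all probe sets was -0.21 for deiminated minus input as deposited, 0.51 after quantile normalisation, 1.29 after median centring and 4.32 after scaling to the hybridisation controls. Of the 16 probe sets, 7 were positive under all 4 scalings in the deiminated comparison, 9 turned sign and 0 were negative under all 4. For non-deiminated minus input these counts were 8, 8 and 0. After median centring limma called 9 of the 16 higher and 1 lower in each comparison. With each gene taken through its probe set with the highest mean signal, 6700 of 13055 were then called higher and 471 lower in deiminated RNA. In non-deiminated RNA 6491 were called higher and 431 lower. Of the calls over all probe sets, 90.3% and 90.5% were higher after median centring. These shares were 48.4% and 49.0% as deposited and 64.5% and 64.6% after quantile normalisation. Scaled to the hybridisation controls, 0 of the 16 and 0 of all probe sets were called by limma in either comparison, with a median standard error of 2.65 in place of 0.59. Set against the median of all probe sets, 4 of 16 lay above it and 4 below it under every scaling in the deiminated comparison. Above it were the 3 Homer1 probe sets named and Camk2a 1442707_at, which passed the filter through its deiminated arrays. Below it were Camk2a 1443876_at, at -4.53 to -2.56 from the median, Homer1 1421768_a_at at -1.96 to -1.57, Dlg4 1419580_at at -2.36 to -0.995 and Shank3 at -2.70 to -0.24. In the non-deiminated comparison 5 lay above and 6 below, and Arc was among the former at 0.78 to 1.37.

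Setting the deiminated protein against the non-deiminated one addresses whether citrullination alters RNA binding, and this does not involve the input signal. None of the 16 probe sets was called by limma, and 0 had an unadjusted p under 0.05, where 0% of all probe sets were called and 1.32% had an unadjusted p under 0.05. The median difference was -0.02 against -0.01 for all probe sets, with 8 positive and 8 negative. The groups did not overlap for 5 of the 16, where 24.1% of all probe sets did not, 11% higher and 13.1% lower in deiminated RNA. Those were Arc, Shank3, Camk2a 1437125_at and Dlg4 1460261_at, which were lower in deiminated RNA, and Camk2a 1442707_at, which was higher.

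**Figure D4:**
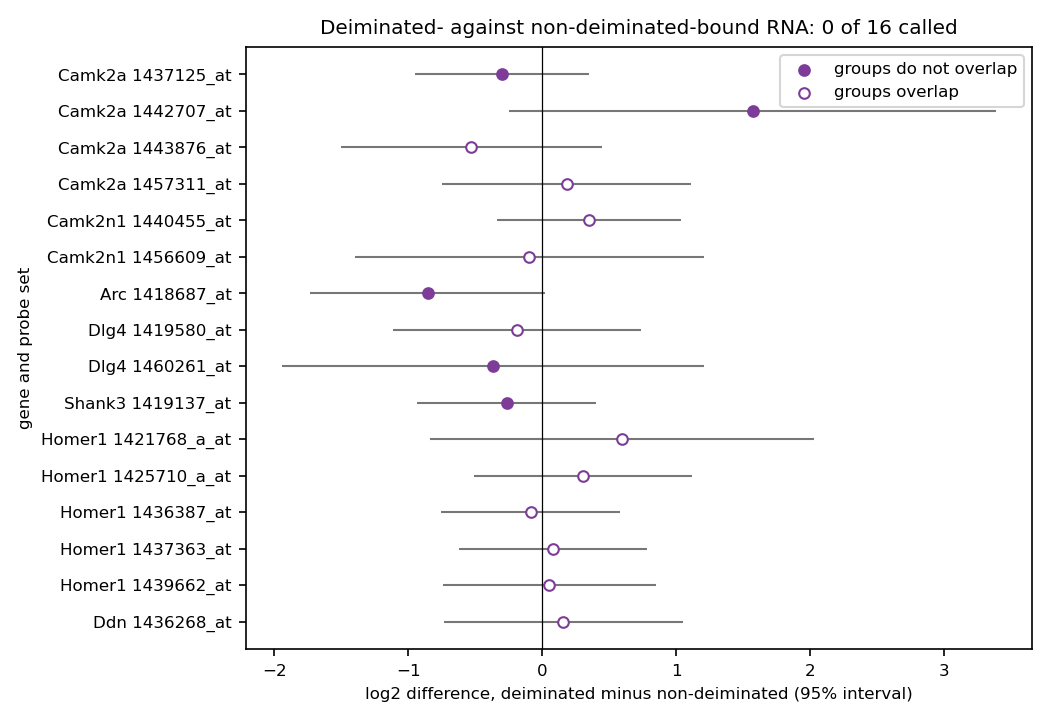
Log2 difference, deiminated minus non-deiminated, of the 16 tested probe sets with 95% intervals; filled points are probe sets whose groups of 2 arrays did not overlap. Every interval includes 0, and the interval of Arc reaches from -1.73 to 0.02.

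Arc had the moderated t furthest from 0 among these probe sets. Its log2 difference was -0.85 ± 0.41 (n = 2 and 2; 95% interval -1.73 to 0.02; adjusted p = 0.9999), with both deiminated arrays under both non-deiminated arrays. When each bound array was left out, the difference ran from -1.03 to -0.68. Camk2a 1442707_at, which passed the filter through the deiminated arrays alone, had 1.57 ± 0.84 (-0.24 to 3.39), and it ran from 0.56 to 2.59 on leaving out an array. Shank3 had -0.26 ± 0.31 (-0.93 to 0.40) and Camk2a 1437125_at -0.30 ± 0.30 (-0.95 to 0.35). Among the untested probe sets, Shank1 was lower on both deiminated arrays than on both non-deiminated ones, and Camk2a 1441734_at was higher on both.

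For 5 of the 16 probe sets the 95% interval lay within 2-fold in either direction, as for 24.2% of all. The 3 Homer1 probe sets that rose against input had -0.09 (-0.76 to 0.58), 0.08 (-0.62 to 0.78) and 0.06 (-0.74 to 0.85), so a difference beyond 2-fold lay outside these intervals. Ddn had 0.16 (-0.73 to 1.05), Camk2a 1457311_at 0.18 (-0.75 to 1.11) and Dlg4 1419580_at -0.19 (-1.11 to 0.74). The interval of Camk2n1 1456609_at was wider, -1.40 to 1.21, so changes within that range cannot be set aside with these arrays. These intervals do not give the smallest change that limma would have called. Over all probe sets the smallest unadjusted p from limma in this comparison was 0.00201, and the smallest adjusted p was 0.9999.

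Replicates of the postsynaptic probe sets lay about as close as those of other probe sets. The median absolute log2 gap between replicates was 0.31 for the 16 with the deiminated protein, against 0.40 for all, and 0.45 on the non-deiminated arrays, against 0.55. In both groups 4 of the 16 (25%) were higher on the replicate with more hybridisation control signal, against 36.5% of all probe sets. These were Camk2n1 1456609_at, Camk2a 1457311_at, Camk2a 1443876_at and Ddn. Lower on that replicate in both groups were 7 of the 16 (43.75%), against 23.9% of all. They were Homer1 1436387_at, 1437363_at and 1439662_at, Camk2a 1437125_at and 1442707_at, Arc and Dlg4 1419580_at.

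Other genes of the same synaptic machinery were taken by list, each through its probe set with the highest mean signal. Their other probe sets are not described. In deiminated RNA against input, signs differed among the kept probe sets for 59.5% of the 5643 genes with more than 1. Over all 13055 genes taken in that way, 29.5% were called higher and 22.4% lower than input in deiminated RNA, with a median log2 difference of 0.11, and 29.2% and 21.3% in non-deiminated RNA, with a median of 0.12. Of 25 listed postsynaptic scaffold and adhesion genes, 19 were measured and kept, and 8 were called higher and 1 lower than input in deiminated RNA, with a median of 0.79. The same numbers held in non-deiminated RNA, with a median of 0.75. Sipa1l1, a GTPase-activating protein of spines, rose by 6.24 ± 0.43 from an input signal of 70.3 to 4901 and 6487. Ppp1r9a, an actin-binding scaffold also called neurabin, rose by 3.001 ± 0.39, and Dlg1, a relative of PSD-95, by 2.48 ± 0.39. The scaffold Cnksr2 fell by 2.29 ± 0.40. In non-deiminated RNA these genes had 5.98, 2.85, 2.47 and -1.91 and were called in the same directions.

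Of 16 calcium and calmodulin signalling genes, 11 were kept and 7 were called higher and 0 lower in both comparisons, with medians of 1.61 and 1.49. Camk4, a nuclear calmodulin-dependent kinase, rose by 3.22 ± 0.38 in deiminated RNA and 3.13 ± 0.38 in non-deiminated RNA. The calcineurin subunit Ppp3cb rose by 2.79 ± 0.46 and 2.70 ± 0.46, and Camk1 by 2.58 ± 0.48 and 2.88 ± 0.48. Camk1 read 24.2 on the input, just under the filter signal of 25.5, and passed through its bound arrays alone. Its differences are therefore given as a description. Glutamate receptors and their partners were divided, with 4 called higher and 1 lower of 12 in deiminated RNA and 4 and 2 in non-deiminated RNA, and medians of 0.00357 and -0.04. The AMPA receptor subunits Gria1 and Gria2 rose by 2.70 ± 0.45 and 1.94 ± 0.38 in deiminated RNA and the NMDA receptor subunit Grin2c by 1.93 ± 0.43. Grin2d, another NMDA receptor subunit, fell by 1.88 ± 0.50 there and by 1.29 ± 0.50 in non-deiminated RNA.

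Among 8 other kept transcripts known from dendrites, 4 were called higher and 0 lower in deiminated RNA, with a median of 1.27, and 4 higher and 1 lower in non-deiminated RNA, with a median of 1.04. Besides Gria1, the elongation factor Eef1a1 rose by 2.70 ± 0.47 and the Purkinje cell transcript Pcp2 by 2.61 ± 0.38 in deiminated RNA. Gria1 and Gria2, both called higher, stand in this list and among the glutamate receptors, so the lists are not separate. Immediate early genes, the class of Arc, had 3 called higher and 2 lower of 11 in deiminated RNA, with a median of 0.01, and 2 and 2 in non-deiminated RNA, with a median of 0.19. The synaptic pentraxin Nptx2 rose by 3.30 ± 0.59, the transcription factors Egr3 by 1.33 ± 0.41 and Jun by 1.05 ± 0.38, while Egr4 fell by 2.47 ± 0.59 and Ier2 by 1.57 ± 0.54. Nptx2 read 9.05 on the input, under the filter signal of 25.5, and passed through its bound arrays alone. Its difference is therefore given as a description. In non-deiminated RNA Jun had 0.88 and was not called. None of the kept genes of these 5 lists was called between deiminated and non-deiminated RNA. The counts of the lists moved with the scaling. Of all genes taken in the same way, median centring gave 6700 of 13055 called higher and 471 lower in deiminated RNA. Quantile normalisation gave 5252 of 12998 called higher and 2468 lower. After median centring 13 of the 19 scaffold genes were called higher and 0 lower in deiminated RNA, and after quantile normalisation 9 higher and 3 lower. For the calcium and calmodulin genes these were 9 and 0, then 5 and 0, for the glutamate receptors 7 and 0, then 4 and 4, for the dendritic transcripts 6 and 0, then 4 and 1, and for the immediate early genes 6 and 0, then 3 and 2. Scaled to the hybridisation controls, limma called 0 genes of any list, as it called 0 of all probe sets.

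The gene most like each member was found by the distance between log2 signals, each centred on its own mean over the 5 arrays. Daglb, an enzyme of endocannabinoid synthesis, came nearest to Camk2a 1457311_at, at a distance of 0.09 where the median of all candidates was 1.99. Ddn was nearest to the coat protein gene Sec24d (0.07), Homer1 1436387_at to the growth factor gene Vegfb (0.08) and Shank3 to Asb8 (0.10). Shank1 was nearest to the cytochrome Cyp2e1 (0.09), Dlg4 1419580_at to Ccdc30 (0.17), Camk2n1 1456609_at to Zfp553 (0.19) and Arc to the mitochondrial thiolase Acaa2 (0.24). With 5 arrays that fall into bound and input, close matches are easily found, and these are descriptions.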

How the data were processed

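The deposited table holds the signal intensity of 45101 probe sets on 5 arrays, on a linear scale. Per the submitters' processing notes the authors used MAS5, with no version named there. With 2% of probe sets trimmed off either end, all arrays had a mean of 150, which shows a common scaling by the authors. Detection calls were not used here.

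Log2 was taken after adding 4.18, the median of all values divided by 10. Of 45037 probe sets that are not controls, those with a mean log2 signal at or above the 40th percentile were kept (27022). R 4.3.3 and limma 3.58.1 were used (lmFit and eBayes with a trend), with 1 mean per group, 2 residual and 10.9 prior degrees of freedom, and Benjamini-Hochberg adjustment over all kept probe sets. The model was tested on simulated data. The number of arrays limits the precision. All 21 Entrez identifiers matched the gene table under the same symbol (GRCm38.p6). All 8 genes were named with every probe set. From each gene list up to 3 genes called higher and 3 called lower in deiminated RNA against input are named, by size. The members, lists, rules and alternatives were chosen with earlier results of these data known. Replicate numbers follow sample order and pair no arrays.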

Additional observations from a re-analysis of the deposited data

How the results depend on the processing

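Between deiminated and non-deiminated RNA, 0 of the postsynaptic probe sets were called under any alternative run. Of 236 recomputed differences, 223 kept their direction. Changing the filter or the variance model, fitting the bound arrays alone and blocking on the protein name cannot change these differences. Part of the 223 was therefore fixed in advance and is no sign of stability. The 13 that turned came from leaving out a bound array, when Camk2a 1457311_at ran from -0.29 to 0.66, Camk2n1 1456609_at from -0.88 to 0.69, Dlg4 1419580_at from -0.70 to 0.32 and Ddn from -0.045 to 0.36. Homer1 1421768_a_at ran from -0.30 to 1.49, 1436387_at from -0.26 to 0.084, 1437363_at from -0.19 to 0.35 and 1439662_at from -0.19 to 0.30. Leaving out an array leaves 1 on its side, assumed to vary like the others.

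Against input, 157 of 204 recomputed differences for deiminated RNA and 155 of 204 for non-deiminated RNA kept direction and call. Leaving out a bound array gave 2 to 8 called for deiminated RNA and, for non-deiminated RNA, ran from -0.88 to 1.15 for Camk2a 1442707_at and from -0.058 to 0.43 for Camk2n1 1440455_at. With no trend 2 were called in each comparison, and the share of all probe sets called under that model is not given here. With hybridisation control scaling 0 were called in each, as over all probe sets. Other signs turned only with the scaling. After quantile normalisation deiminated minus input was -0.40 for Camk2a 1437125_at, -0.55 for Camk2n1 1440455_at and 1.12 for Arc, and non-deiminated minus input was -0.095 and -0.85 for the first pair. After median centring, deiminated and then non-deiminated, Camk2a 1457311_at had 0.48 and 0.22, Shank3 0.27 and 0.46, Homer1 1425710_a_at 0.81 and 0.42, and Arc 1.23 in the former. On the scale of the hybridisation controls, in the same order, Camk2a 1443876_at had 1.75 and 2.35, Camk2a 1457311_at 4.40 and 4.25, Dlg4 1419580_at 3.32 and 3.56, Shank3 4.08 and 4.37, Homer1 1421768_a_at 2.75 and 2.25, Homer1 1425710_a_at 4.34 and 4.07, and Arc 4.37 in the former. The cause of these turns was not tested. The block for the protein name pairs 1 deiminated with 1 non-deiminated array under each name. In this layout neither that block nor the fit of the 4 bound arrays alone can change the differences between bound groups. With each of them limma called 0. The scalings of the gene lists were added after seeing the data. Signal near the pseudocount limits the dim probe sets.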

Other observations

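Markers of other brain cells were measured beside the postsynaptic transcripts. Over all genes taken through their probe set with the highest mean signal, 29.5% were called higher and 22.4% lower than input in deiminated RNA and 29.2% and 21.3% in non-deiminated RNA. Of 6 astrocyte markers, 3 were called higher than input by limma in each comparison and 0 lower, with medians of 1.09 in deiminated and 1.15 in non-deiminated RNA. The glutamate transporter Slc1a2 rose by 3.17 ± 0.47 in deiminated RNA (adjusted p = 0.000211) and the calcium-binding S100b by 2.91 ± 0.39. Gfap, the astrocyte filament, had -0.24 ± 0.37 and was not called. Of 5 kept oligodendrocyte markers, 3 were called higher in each comparison, with Mag, a myelin adhesion protein, at 4.05 ± 0.45, Mobp at 3.33 ± 0.43 and Mog at 2.64 ± 0.48 in deiminated RNA. Mag read 17.9 on the input, under the filter signal of 25.5, and passed through its bound arrays alone. Its difference is therefore given as a description. Mbp, which encodes a major myelin protein and whose mRNA is carried into oligodendrocyte processes, had -0.56 ± 0.90. It read 14068 and 33403 with the deiminated protein, 10834 and 42153 with the non-deiminated protein and 31935 on the input, so the replicate with more hybridisation control signal was the higher, as for Camk2n1 1456609_at.

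Of 5 kept microglial markers, 2 were called higher in deiminated RNA, Csf1r at 1.33 ± 0.42 and C1qa at 1.80 ± 0.57, and 0 lower, with Tmem119 at 0.41, Cx3cr1 at -0.05 and Aif1 at -0.92. In non-deiminated RNA Csf1r and C1qa were called higher and Aif1 lower, at -1.93 ± 0.64 (adjusted p = 0.0248), and the median was -0.04. Of 4 kept endothelial markers, 2 were called lower in deiminated RNA, Kdr at -2.10 ± 0.51 and Tek at -2.997 ± 1.04, though Tek read 35.5 on replicate 1 and 1.72 on replicate 2 and was not called in non-deiminated RNA, at -1.12 (adjusted p = 0.382). The other two, Cldn5 at 0.37 and Flt1 at 0.39, were not called. The liver transcript Alb read 16.5 to 32.5 on the bound arrays and 284 on the input, with a log2 difference of -3.41 ± 0.80 in deiminated RNA. The mean log2 signal of each bound group lay under the filter threshold, so Alb passed through the input array alone. Its difference is therefore given as a description. The scaling moved these counts too. After median centring 2 of the 4 endothelial markers were called higher and 0 lower in deiminated RNA, and 5 of the 6 astrocyte markers higher. Of all genes taken through their probe set with the highest mean signal, 6700 of 13055 were then called higher and 471 lower. The markers named were picked from their lists after their values were seen.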
